A study of Mus musculus with 6 samples.

Results

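Acute-phase proteins and the genes through which interleukin-6 (IL-6) family cytokines signal were followed in mouse hearts under pressure overload. The group holds 10 genes of the 18019 in the deposited table, found by their NCBI Gene IDs: the acute-phase genes Saa3, Serpina3n, Hp and Cp, the receptor genes Il6st, Il6ra, Osmr and Lifr, the feedback inhibitor Socs3 and the transcription factor Stat3. They were picked with the same comparison of groups already known, so their levels are a description and carry no test. The samples were 3 VNS-TAC and 3 Ctrl-TAC libraries from the hearts of wild-type mice, taken 8 weeks after transverse aortic constriction (TAC), a surgical narrowing of the aorta. VNS-TAC mice had received, in the dorsal motor nucleus of the vagus, an adeno-associated virus that expresses a light-gated channelrhodopsin fused to GFP from the promoter of choline acetyltransferase, so that vagal preganglionic neurones could be driven by light. Ctrl-TAC mice had received the same kind of virus with GFP alone, and both groups had the constriction. The library names of the VNS-TAC samples start with X10Hz, which reads as a frequency of 10 Hz, and those of Ctrl-TAC with Con. The sources used here do not give strain, sex, age, the part of the heart taken or whether the libraries stand for separate animals. The spread between libraries, against which the p-values set the difference between groups, may thus be partly technical. The VNS-TAC libraries are numbered as in the table's columns, which may not be the order of the sample titles, because the library names in the labels carry other numbers.

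IL-6 family cytokines bind a receptor of their own, such as Il6ra, Osmr or Lifr, together with the shared signalling chain gp130, encoded by Il6st. The receptors activate Janus kinases, which phosphorylate STAT3, and STAT3 turns on target genes that include Socs3, an inhibitor that closes the loop on gp130. In liver and in other tissues this route, together with C/EBP factors, switches on acute-phase genes. In the heart, gp130 signalling is known for its part in cardiomyocyte survival and hypertrophy.

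Promoter sequence is shown for Saa3, Serpina3n and Socs3, the members farthest above the controls in library VNS-TAC 3. Each stretch runs 5′ to 3′ on the gene's strand, from 250 to 91 bases before a start annotated by RefSeq (GRCm38.p6). The gene spans of Saa3 and Socs3 given below reach farther upstream than this start, so their stretches lie inside those spans. Capitals mark matches to the STAT motif TTCNNNGAA or the C/EBP motif TTGCNNAA, searched on both strands.
Saa3 (chr7:46715767-46715926, minus strand): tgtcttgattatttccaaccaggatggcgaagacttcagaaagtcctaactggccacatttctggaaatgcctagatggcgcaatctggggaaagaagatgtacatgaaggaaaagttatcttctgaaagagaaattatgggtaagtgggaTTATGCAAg
Serpina3n (chr12:104406458-104406617, plus strand): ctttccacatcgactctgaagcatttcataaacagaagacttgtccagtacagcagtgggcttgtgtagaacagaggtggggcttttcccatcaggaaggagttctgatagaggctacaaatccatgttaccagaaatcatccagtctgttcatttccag
Socs3 (chr11:117969457-117969616, minus strand): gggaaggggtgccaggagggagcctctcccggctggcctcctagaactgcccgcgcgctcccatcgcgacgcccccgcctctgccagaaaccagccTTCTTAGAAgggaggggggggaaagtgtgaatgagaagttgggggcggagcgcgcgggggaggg
Of the 10 members, 9 had at least 1 promoter in the RefSeq table, 11 windows in all. Over the 250 bases before each start, the STAT motif was found in 1 of these windows, that of Socs3, with its first base 154 bases before the start, against 7.02% of all 32851 promoters in the table. The C/EBP motif was found in 2 windows, that of Saa3 at 99 bases and 1 of the windows of Cp at 70 bases before the start, against 9.56% of all promoters. The motifs did not overlap in any of these windows. A match describes these letters and says nothing of binding.

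The VNS-TAC libraries stood apart from each other, VNS-TAC 3 most, and values without VNS-TAC 3 are given for each member. Across genes, log2 values correlated at 0.941 to 0.979 between VNS-TAC libraries and at 0.988 to 0.992 between Ctrl-TAC libraries, and VNS-TAC 3 correlated with the Ctrl-TAC libraries at 0.947 to 0.952. Depths estimated from the steps of low FPKM values were similar, at about 13180000 to 15880000 fragments per library.

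All 10 members passed the filter of a mean of at least 1 FPKM (fragments per kilobase of gene, scaled to library size), although Saa3 passed it through the VNS-TAC libraries alone. In 2 members, Saa3 and Serpina3n, the 3 VNS-TAC values all lay above the 3 Ctrl-TAC values, while the other 8 overlapped, and 0 lay wholly below. Over all 11422 genes that passed the filter, 8.01% lay wholly above, 17.4% lay wholly below and 25.4% were without overlap in either direction. Library VNS-TAC 3 was the highest of the 6 libraries in 9 of the 10 members, against 31.8% of all genes, and Hp was the exception. VNS-TAC 1 was the lowest library in 5 members, namely Cp, Il6st, Il6ra, Osmr and Lifr, against 37.4% of all genes. VNS-TAC 2 was the lowest library in 3 members, namely Hp, Socs3 and Stat3, against 8.60% of all genes. The order of the VNS-TAC libraries therefore differed between the members.

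**Figure D1:**
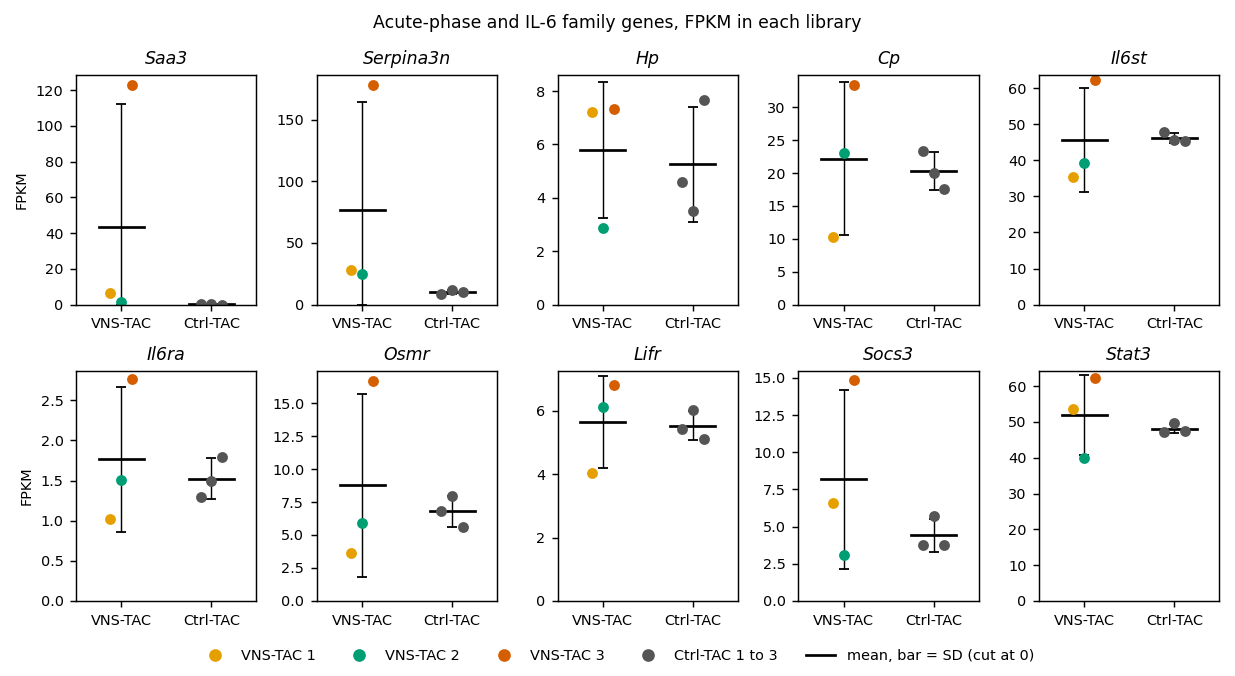
FPKM of the 10 genes in each library (points), with VNS-TAC left of Ctrl-TAC in each panel, the group mean as a horizontal line and the SD as a bar (n = 3 each). VNS-TAC 3 is the highest point in every panel except Hp, where Ctrl-TAC 3 is at 7.65 FPKM.

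Saa3 (Gene ID 20210, chromosome 7, 46711998 to 46719615, GRCm38) encodes serum amyloid A3, an acute-phase protein that mice make mainly outside the liver. It was at 6.37, 1.19 and 122.66 FPKM in VNS-TAC libraries 1 to 3, against 0.27, 0.14 and 0 FPKM in Ctrl-TAC 1, 2 and 3. Every VNS-TAC library lay above every Ctrl-TAC library, but the VNS-TAC values were far apart, at 43.4 ± 68.7 FPKM against 0.137 ± 0.135 FPKM (SD, n = 3). The difference in log2(FPKM + 1) between VNS-TAC and Ctrl-TAC was 3.48 ± 1.28 (SE), and 1.83 without VNS-TAC 3. Against the Ctrl-TAC mean, the difference in VNS-TAC 3 was 6.77 on this scale, the largest of the 11422 genes in that library. In VNS-TAC 1 and 2 the differences were 2.70 and 0.95, and Saa3 ranked 4 and 33 from the top in those libraries. The Ctrl-TAC values lie so near 0 that the scale with a pseudocount of 1 understates the ratio. In whole tissue, a difference in the number of cells of a type and a difference in RNA per cell cannot be told apart, for Saa3 and for the genes that follow.

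Serpina3n (Gene ID 20716, chromosome 12, 104406646 to 104414334, GRCm38) encodes a secreted serine protease inhibitor of the antichymotrypsin family. It showed the same order of the VNS-TAC libraries as Saa3, at a higher level. It was at 27.92, 24.48 and 177.78 FPKM in VNS-TAC libraries 1 to 3, against 8.48, 11.69 and 9.97 FPKM in Ctrl-TAC 1, 2 and 3. The log2 difference between the groups was 2.21 ± 0.68 (SE), and 1.31 without VNS-TAC 3. VNS-TAC 1 and 2 were close to each other, at 2.78 and 2.44 times the Ctrl-TAC mean, while VNS-TAC 3 was at 17.7 times. Serpina3n ranked 20, 19 and 5 among the 11422 genes by its difference from Ctrl-TAC in VNS-TAC 1, 2 and 3. In VNS-TAC 3, Serpina3n and Saa3 were the most abundant members, above Il6st at 62.25 and Stat3 at 62.13 FPKM, whereas in Ctrl-TAC the most abundant were Stat3 at 48.1 ± 1.33 and Il6st at 46.2 ± 1.42 FPKM (SD, n = 3).

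Serpina3n belongs to a cluster of close copies on chromosome 12, among which the counting could have split or shared reads, so its own values and those of its neighbours are uncertain. Of the copies, named here for their values, Serpina3g was at 0.79, 0.41 and 3.41 FPKM in VNS-TAC libraries 1 to 3, against 0.22 to 0.39 FPKM in Ctrl-TAC. Serpina3m was at 0.04, 0.05 and 2.55 FPKM in VNS-TAC, against 0 to 0.16 FPKM in Ctrl-TAC. VNS-TAC 3 was the highest library for these copies too, at levels far under that of Serpina3n. Saa1 and Saa2, the liver forms of serum amyloid A and themselves near-identical, were at 0 to 0.11 FPKM in every library of either group.

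Hp (Gene ID 15439, chromosome 8, 109575128 to 109579172) encodes haptoglobin, which binds free haemoglobin in plasma. It was at 7.20, 2.86 and 7.34 FPKM in VNS-TAC libraries 1 to 3, against 4.59, 3.52 and 7.65 FPKM in Ctrl-TAC 1, 2 and 3. The groups overlapped, with VNS-TAC 2 the lowest and Ctrl-TAC 3 the highest library. The log2 difference was 0.09 ± 0.36 (SE), and -0.10 without VNS-TAC 3. Cp (Gene ID 12870, chromosome 3, 19956933 to 20009750) encodes ceruloplasmin, a copper-carrying ferroxidase. It was at 10.21, 23.07 and 33.34 FPKM in VNS-TAC, against 23.29, 20.05 and 17.60 FPKM in Ctrl-TAC, so that VNS-TAC 1 lay below and VNS-TAC 3 above all controls. The mean log2 difference of Cp was -0.01 ± 0.37 (SE), and -0.37 without VNS-TAC 3. It was 0.06 with size factors and 0.09 after quantile normalization, so its sign depended on the scaling.

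**Figure D2:**
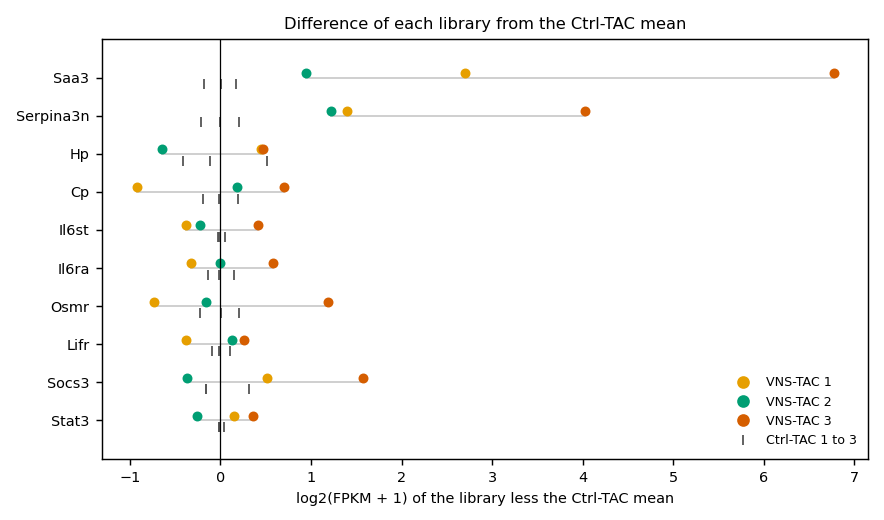
Difference of log2(FPKM + 1) from the Ctrl-TAC mean for each of the 10 genes, with the VNS-TAC libraries as coloured points and the Ctrl-TAC libraries as grey ticks. Saa3 and Serpina3n lie to the right of all ticks in the 3 VNS-TAC libraries, while Cp, Il6st, Il6ra, Osmr and Lifr have VNS-TAC 1 on the left and VNS-TAC 3 on the right of 0.

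Among the receptors, Osmr (Gene ID 18414, chromosome 15, 6813568 to 6874968), the specific chain of the oncostatin M receptor, varied most. It was at 3.66, 5.92 and 16.69 FPKM in VNS-TAC libraries 1 to 3, against 6.79, 7.97 and 5.63 FPKM in Ctrl-TAC 1, 2 and 3. VNS-TAC 3 stood at 2.46 times the Ctrl-TAC mean and VNS-TAC 1 at 0.538 times. The log2 difference between the groups was 0.10 ± 0.44 (SE), and -0.45 without VNS-TAC 3.

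Il6st, the gp130 chain (Gene ID 16195, chromosome 13, 112464070 to 112506860), was at 35.39, 39.23 and 62.25 FPKM in VNS-TAC libraries 1 to 3, against 47.84, 45.56 and 45.24 FPKM in Ctrl-TAC. The Ctrl-TAC libraries differed by a ratio of 1.06 between highest and lowest, and the VNS-TAC libraries fell on either side of them. The log2 difference was -0.06 ± 0.21 (SE), -0.30 without VNS-TAC 3 and 0.01 with size factors. Il6ra (Gene ID 16194, chromosome 3, 89869324 to 89913196), the specific IL-6 receptor, was the least abundant of the 4 member receptors, at 1.02, 1.51 and 2.77 FPKM in VNS-TAC, against 1.29, 1.49 and 1.79 FPKM in Ctrl-TAC. Lifr (Gene ID 16880, chromosome 15, 7090610 to 7197489), which binds leukaemia inhibitory factor, was at 4.02, 6.11 and 6.81 FPKM in VNS-TAC, against 5.43, 6.02 and 5.12 FPKM in Ctrl-TAC. For Il6ra and Lifr the log2 differences were 0.09 ± 0.23 and 0.00 ± 0.19 (SE), and -0.16 and -0.12 without VNS-TAC 3. With equal library sums Lifr was at -0.06. In each of the 4 receptor genes VNS-TAC 3 was the highest and VNS-TAC 1 the lowest of the 6 libraries.

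Socs3 (Gene ID 12702, chromosome 11, 117966079 to 117970336), the inhibitor whose promoter window held the STAT motif, was at 6.59, 3.12 and 14.83 FPKM in VNS-TAC libraries 1 to 3, against 3.78, 5.68 and 3.76 FPKM in Ctrl-TAC 1, 2 and 3. VNS-TAC 3 and VNS-TAC 1 lay above all controls and VNS-TAC 2 below them. The log2 difference was 0.57 ± 0.44 (SE), and 0.07 without VNS-TAC 3. Stat3 (Gene ID 20848, chromosome 11, 100886806 to 100939594) was at 53.63, 40.00 and 62.13 FPKM in VNS-TAC, against 47.28, 49.63 and 47.39 FPKM in Ctrl-TAC. It showed the same order of the VNS-TAC libraries as Socs3, in a narrower range. The log2 difference of Stat3 was 0.09 ± 0.17 (SE), and -0.05 without VNS-TAC 3. Its RNA level does not measure its phosphorylation.

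Of the 10 members, 8 had a higher mean in VNS-TAC, with a median log2 difference of 0.09, against 38.2% of all genes and a median of -0.08. Without VNS-TAC 3, 3 of 10 were higher and the median was -0.11, against -0.10 for all genes. By library, the median difference of the members from the Ctrl-TAC mean was -0.08, -0.08 and 0.64 in VNS-TAC 1, 2 and 3, and that of all genes was -0.11, -0.07 and -0.02. In VNS-TAC 3, 4 members (Saa3, Serpina3n, Socs3 and Osmr) stood at least 1 above the Ctrl-TAC mean on the log2 scale, against 2.43% of all genes. Scaling by size factors gave 10 members with a higher mean, quantile normalization 9 and equal library sums 7. In that order, the median over all genes was -0.02, 0.01 and -0.15, and that of the members 0.16, 0.22 and 0.03. The share of all genes with a higher mean was not counted under these scalings or without VNS-TAC 3. Saa3, Serpina3n and Socs3 kept a positive difference under these scalings and without VNS-TAC 3, whereas the sign of the other 7 depended on that library or on the scaling. For Socs3 the difference without VNS-TAC 3 was only 0.07, against 1.83 for Saa3 and 1.31 for Serpina3n.

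The genes with the most similar pattern to a member were taken as those with the smallest root mean square difference over the 6 libraries. For Serpina3n the nearest was Lcn2, which encodes the iron-siderophore carrier lipocalin 2, at a difference of 0.27 on the log2 scale. Lcn2 was also the nearest to Saa3, though at 1.06, followed by Serpina3n itself at 1.26 and the calprotectin gene S100a8 at 1.40, so no gene followed Saa3 closely. Gnmt, an enzyme of glycine methylation, came next to Serpina3n at 0.31. For Socs3 the nearest were Csf2rb2, a receptor chain for IL-3, at 0.13, the IL-4 receptor gene Il4ra at 0.18 and the kinase gene Pim1 at 0.18. For Osmr they were Cyp1b1 at 0.13 and Tbc1d15 and Plscr2 at 0.14 each. Pim1, a STAT3 target, was at 14.07, 7.90 and 23.44 FPKM in VNS-TAC libraries 1 to 3, against 6.47, 11.65 and 7.76 FPKM in Ctrl-TAC 1, 2 and 3.

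The other acute-phase genes were compared between VNS-TAC and Ctrl-TAC with limma on all 11422 genes, which asks whether the libraries of the groups differ in them. The list was chosen with earlier results of these data known, so its p-values and counts are a description. Of 35 listed genes in the table, 15 passed the filter. None of the 15, nor any of the 11422 genes, passed limma at an adjusted p under 0.05. With an unadjusted p under 0.05 stood 7 of the 15, of which 6 were higher and 1 lower, against 3.79% and 11.3%. The 6 were Lcn2, Lrg1, C3, C4b, Mt1 and Agt, and all 6 kept that p and direction without VNS-TAC 3. So did 322 of the 433 higher genes and 1073 of the 1286 lower genes among all 11422. The median log2 difference of the 15 genes was 0.62, and 0.31 without VNS-TAC 3, against -0.08 and -0.10 for all genes. C3 and Mt1 are named because of their values. Over all genes, 1719 were under this p, against 835 without Ctrl-TAC 1 and 766 without Ctrl-TAC 2. Higher genes made up 25.2% of the 1719, while the share was 46.7% under size factors, 54.4% under quantile normalization and 10.8% under equal library sums. In the acute-phase list the same 3 scalings, in that order, gave 7, 7 and 6 higher genes and 1 lower gene each.

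Lcn2 was at 12.16, 9.31 and 80.37 FPKM in VNS-TAC libraries 1 to 3, against 2.27, 2.91 and 3.07 FPKM in Ctrl-TAC 1, 2 and 3. The log2 difference was 2.58 ± 0.70 (SE; limma adjusted p = 0.236), and 1.64 without VNS-TAC 3. Like Saa3 and Serpina3n it was higher in each VNS-TAC library and by far the highest in VNS-TAC 3. Lrg1, a secreted leucine-rich glycoprotein of the acute phase, was at 37.93, 46.40 and 89.68 FPKM in VNS-TAC, against 22.00, 23.01 and 21.69 FPKM in Ctrl-TAC (log2 difference 1.25 ± 0.29 (SE), limma adjusted p = 0.208). Mt1, which encodes the metal-binding protein metallothionein 1, was at 278.13, 339.20 and 533.60 FPKM in VNS-TAC, against 217.40 to 246.63 FPKM in Ctrl-TAC. Lrg1 and Mt1 shared the order of the VNS-TAC libraries, with VNS-TAC 3 highest and no overlap with the controls.

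The complement genes C3 and C4b were higher in each VNS-TAC library than in any control, without the wide gap of VNS-TAC 3 seen for Saa3. C3, the central complement component, was at 146.14, 77.64 and 75.95 FPKM in VNS-TAC libraries 1 to 3, against 38.96, 49.27 and 51.02 FPKM in Ctrl-TAC, with VNS-TAC 1 highest. C4b, which acts ahead of C3 in the classical and lectin pathways, was at 20.61, 15.40 and 23.15 FPKM in VNS-TAC, against 8.05, 10.06 and 10.84 FPKM in Ctrl-TAC (log2 difference 0.95 ± 0.18 (SE), limma adjusted p = 0.186). Agt, which encodes angiotensinogen, was at 4.84, 3.82 and 3.41 FPKM in VNS-TAC, against 1.90, 1.84 and 2.33 FPKM in Ctrl-TAC (log2 difference 0.73 ± 0.15 (SE), limma adjusted p = 0.19). In these 3 genes the groups did not overlap, and VNS-TAC 1 was the highest library for C3 and Agt.

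The 20 listed genes under the filter included the plasma proteins Orm1 at 0 to 0.18 FPKM and Hpx at 0 to 0.04 FPKM in VNS-TAC, against 0 FPKM and 0.13 to 0.14 FPKM in Ctrl-TAC.

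**Figure D3:**
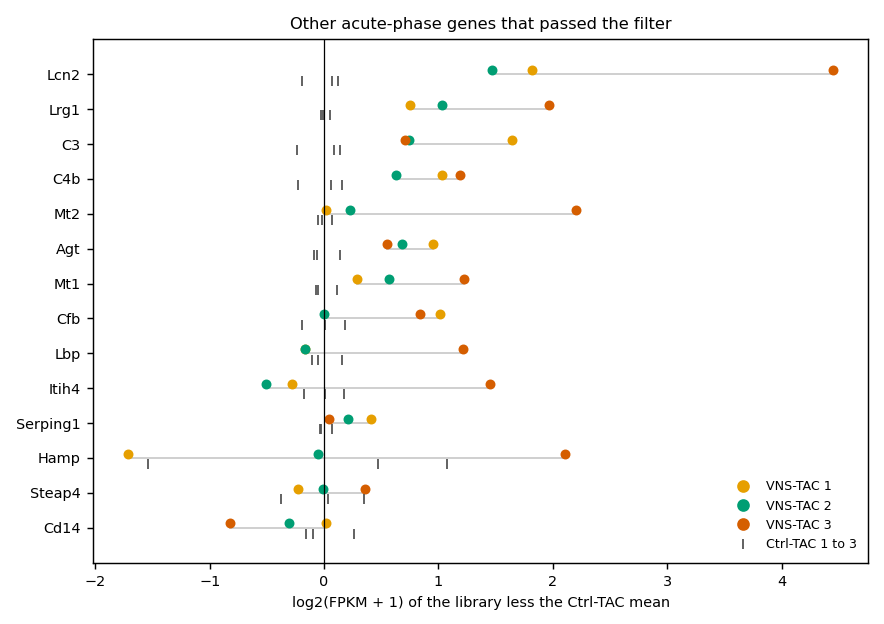
Difference of log2(FPKM + 1) from the Ctrl-TAC mean for the other acute-phase genes that passed the filter, 1 of them left out, ordered by the difference between groups, with VNS-TAC libraries as coloured points and Ctrl-TAC libraries as grey ticks. Lcn2 has VNS-TAC 3 far to the right, while C3 has VNS-TAC 1 farthest to the right.

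The rest of the IL-6 pathway was taken from lists of ligands, receptors, signalling proteins, inhibitors and STAT3 targets. These lists too were chosen with earlier results of these data known, so their p-values and counts are a description. Of 68 listed genes, all in the table, 56 passed the filter and none passed limma at an adjusted p under 0.05. With an unadjusted p under 0.05 stood 12 of the 56, 4 higher and 8 lower in VNS-TAC, against 3.79% and 11.3% of all genes. Without Ctrl-TAC 1 there were 7 such genes. Of these 12 genes, 4 higher and 6 lower kept that p and direction without VNS-TAC 3. Among all tested genes, 322 of 433 higher and 1073 of 1286 lower ones did so. The median log2 difference of the 56 genes was -0.12, against -0.08 for all genes. Under size factors 5 were higher and 6 lower, under quantile normalization 5 and 5, and under equal library sums 4 and 13.

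Ligand genes were scarce. Il6 was at 0.11, 0.18 and 0.12 FPKM in VNS-TAC libraries 1 to 3, against 0.06, 0.38 and 0.06 FPKM in Ctrl-TAC 1, 2 and 3. Osm, which encodes oncostatin M, was at 0.04 to 0.25 FPKM in VNS-TAC, against 0.07 to 0.11 FPKM in Ctrl-TAC. Lif and Il11 averaged 0.107 ± 0.0737 and 0.300 ± 0.173 FPKM in VNS-TAC, and 0.213 ± 0.0473 and 0.357 ± 0.179 FPKM in Ctrl-TAC (SD, n = 3). These genes were among 7 of 10 ligand genes under the filter, which were not tested. Cntf was also under it, at 0.637 ± 0.380 FPKM in VNS-TAC and 0.530 ± 0.221 FPKM in Ctrl-TAC.

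In Ebi3, a subunit of IL-27 named for its values, the groups did not overlap, at 0.16 to 0.52 FPKM in VNS-TAC and 0.61 to 1.01 FPKM in Ctrl-TAC. The remaining 3 ligand genes passed the filter, among them Ctf1 and Clcf1. Ctf1 encodes cardiotrophin-1, known as a hypertrophy factor for cardiomyocytes. It was at 3.29, 4.36 and 3.14 FPKM in VNS-TAC libraries 1 to 3, against 4.26, 5.60 and 5.60 FPKM in Ctrl-TAC, and the groups overlapped (log2 difference -0.42 ± 0.16 (SE), limma adjusted p = 0.299). Clcf1, cardiotrophin-like cytokine, was at 1.28, 0.94 and 3.31 FPKM in VNS-TAC, against 1.21, 1.22 and 0.86 FPKM in Ctrl-TAC, so that VNS-TAC 3 stood above the rest.

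Among receptors outside the 10 members, Il11ra1 was the most abundant, at 66.01, 59.18 and 68.91 FPKM in VNS-TAC libraries 1 to 3, against 54.59 to 59.52 FPKM in Ctrl-TAC. Cntfr was at 3.39 ± 0.468 FPKM in VNS-TAC and 3.97 ± 1.94 FPKM in Ctrl-TAC (SD, n = 3). Il27ra was at 1.23, 0.78 and 0.60 FPKM in VNS-TAC, against 2.22, 1.78 and 1.60 FPKM in Ctrl-TAC, without overlap (log2 difference -0.62 ± 0.17 (SE), limma adjusted p = 0.236). Of the Janus kinases, Jak1 was at 28.6 ± 7.18 FPKM in VNS-TAC and 33.1 ± 1.59 FPKM in Ctrl-TAC, and Jak2 at 4.48 ± 2.46 FPKM in VNS-TAC and 5.88 ± 0.733 FPKM in Ctrl-TAC (SD, n = 3). Tyk2 was at 4.73 to 5.52 FPKM in VNS-TAC and 4.89 to 5.40 FPKM in Ctrl-TAC. Jak1 and Jak2, like Osmr and Il6st, were lowest in VNS-TAC 1, at 21.11 and 1.87 FPKM, as were 37.4% of all genes.

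Adam17 and Adam10, proteases that can shed the IL-6 receptor from the cell surface, were lower in each VNS-TAC library than in any Ctrl-TAC library. Adam17 was at 5.84, 6.55 and 4.82 FPKM in VNS-TAC libraries 1 to 3, against 9.53, 11.48 and 8.72 FPKM in Ctrl-TAC (log2 difference -0.70 ± 0.16 (SE), limma adjusted p = 0.2). Adam10 was at 4.16, 8.42 and 8.04 FPKM in VNS-TAC, against 11.03, 11.26 and 8.78 FPKM in Ctrl-TAC (log2 difference -0.57 ± 0.25 (SE), limma adjusted p = 0.335). Sos1, an exchange factor for Ras, had a log2 difference of -0.34 ± 0.15 (SE).

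Of the inhibitors, 11 of 13 tested had a lower mean in VNS-TAC, with a median log2 difference of -0.22, against 61.8% of all genes and a median of -0.08. Cish, a SOCS family gene best known as a STAT5 target, was higher, at 65.97, 65.28 and 52.47 FPKM in VNS-TAC libraries 1 to 3, against 34.09, 49.73 and 44.25 FPKM in Ctrl-TAC, without overlap (log2 difference 0.52 ± 0.17 (SE), limma adjusted p = 0.263). Socs2 was at 18.62 to 32.91 FPKM in VNS-TAC and 25.94 to 29.27 FPKM in Ctrl-TAC. Socs1 was under the filter, at 0.61 to 1.11 FPKM in VNS-TAC and 0.65 to 1.14 FPKM in Ctrl-TAC. Ptprc, which encodes the leukocyte phosphatase CD45, was at 0.63, 0.72 and 0.89 FPKM in VNS-TAC, against 1.39, 1.39 and 1.23 FPKM in Ctrl-TAC (log2 difference -0.42 ± 0.13 (SE), limma adjusted p = 0.251). Sh2b3, an adaptor that restrains cytokine receptors, had a log2 difference of -0.22 ± 0.11 (SE). VNS-TAC 3 was the highest library, as it was for Socs3, in 3 of the 13 tested inhibitors, a share not above the 31.8% of all genes. They were Socs6, Pias1 and Pias3, at 6.17, 7.51 and 9.03 FPKM in VNS-TAC 3, against at most 5.46, 6.19 and 6.94 FPKM in Ctrl-TAC. These 3 are named for their values.

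The STAT3 target list split. Pim3, a kinase gene, was at 49.11, 73.35 and 130.06 FPKM in VNS-TAC libraries 1 to 3, against 36.80, 34.98 and 32.68 FPKM in Ctrl-TAC 1, 2 and 3 (log2 difference 1.14 ± 0.31 (SE), limma adjusted p = 0.24). Cebpd, a C/EBP factor of the acute-phase response, was at 19.22, 19.00 and 32.17 FPKM in VNS-TAC, against 13.66, 14.76 and 12.23 FPKM in Ctrl-TAC (log2 difference 0.71 ± 0.21 (SE), limma adjusted p = 0.247). Its relative Cebpb was not higher, at 26.6 ± 4.95 FPKM in VNS-TAC and 30.5 ± 3.75 FPKM in Ctrl-TAC (SD, n = 3). Pim3, Cebpd and the survival gene Bcl2l1, which is named for its values, lay without overlap above the controls and were highest in VNS-TAC 3. They were 0.77, 0.47 and 0.51 higher on the log2 scale without that library.

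Lower targets at an unadjusted p under 0.05 were Bcl6, Myc, Hif1a and Vegfa, the last 3 named for their values. The log2 differences of Myc, Hif1a and Vegfa were -0.65 ± 0.25, -0.68 ± 0.26 and -0.51 ± 0.21 (SE), and of these 3 only Hif1a had no overlap between the groups. Bcl6, a transcriptional repressor, was at 4.22, 5.38 and 4.82 FPKM in VNS-TAC, against 6.76, 7.89 and 6.86 FPKM in Ctrl-TAC (log2 difference -0.49 ± 0.14 (SE), limma adjusted p = 0.239). Bcl3 and Junb overlapped, at 6.39 ± 2.71 and 32.3 ± 18.9 FPKM in VNS-TAC and 4.64 ± 2.03 and 23.6 ± 4.68 FPKM in Ctrl-TAC. Timp1, an inhibitor of metalloproteinases that IL-6 family cytokines induce, was at 9.18 ± 2.00 FPKM in VNS-TAC and 8.47 ± 1.28 FPKM in Ctrl-TAC (SD, n = 3). Over the 22 tested targets, the median difference from the Ctrl-TAC mean was 0.22, -0.26 and 0.24 in VNS-TAC 1, 2 and 3. For all genes it was -0.11, -0.07 and -0.02. The median was lowest in VNS-TAC 2, but the order differed between targets. VNS-TAC 1 was the lowest library in 5 of the 22, against 37.4% of all genes.

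**Figure D4:**
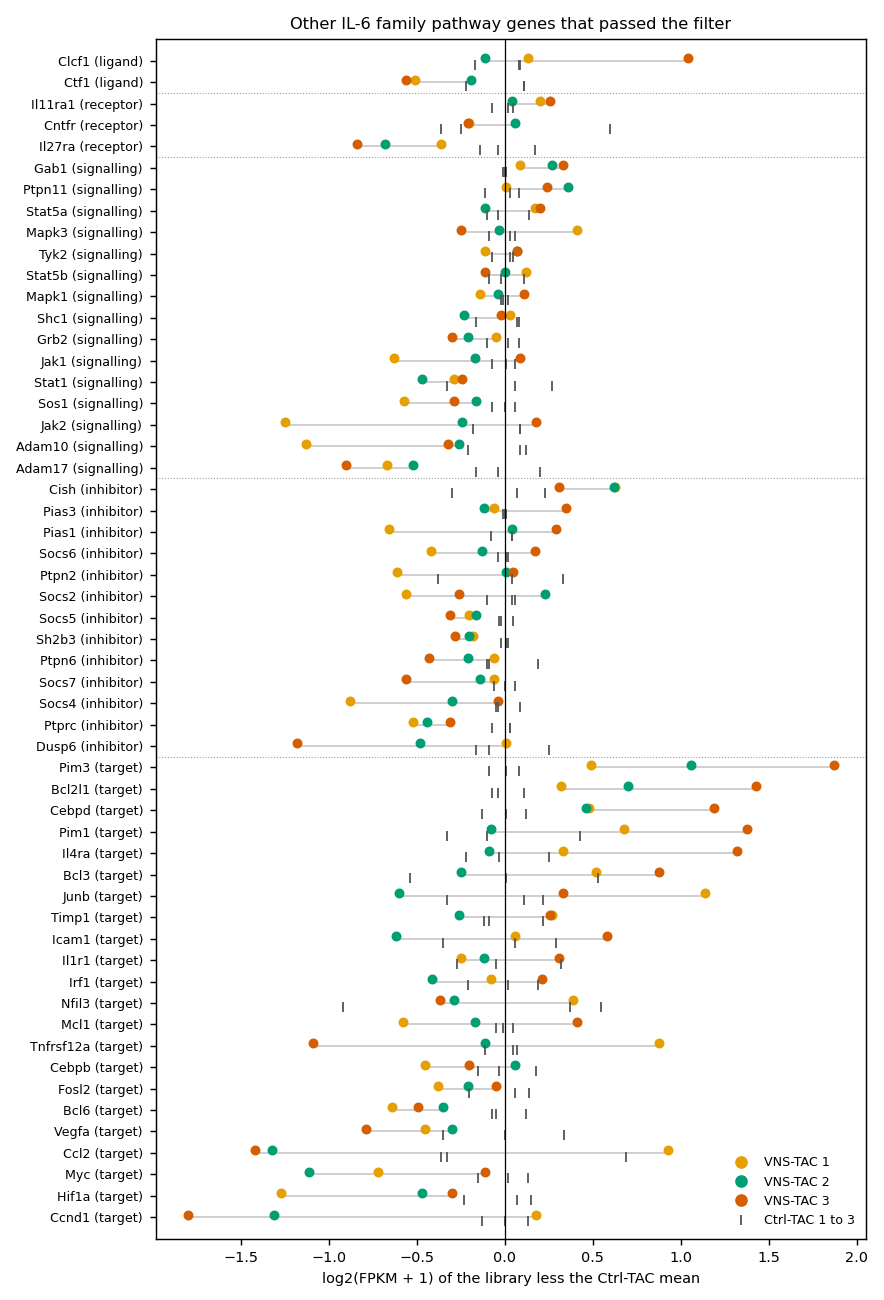
Difference of log2(FPKM + 1) from the Ctrl-TAC mean for the other pathway genes that passed the filter, 1 of them left out, grouped by role from ligands at the top to STAT3 targets at the bottom, with VNS-TAC libraries as coloured points and Ctrl-TAC libraries as grey ticks. Pim3, Bcl2l1 and Cebpd lie to the right of all ticks in each VNS-TAC library, while Bcl6 and Hif1a lie to the left.

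Markers of other cells were read beside these genes. The 15 neutrophil markers summed to 60.3, 49.0 and 109 FPKM in VNS-TAC libraries 1 to 3, against 2.90 to 7.15 FPKM in Ctrl-TAC. VNS-TAC 3 was the highest library in 10 of the 15, against 31.8% of the genes that passed the filter. All 15 had a higher mean FPKM in VNS-TAC, against 38.2% of the genes that passed the filter on the log2 scale. Only 5 of the 15 passed the filter. Most of the sum in VNS-TAC 3 came from S100a8 and S100a9, at 41.74 and 41.97 FPKM. Of the granule genes, Ngp was at 3.34, 1.38 and 2.67 FPKM in VNS-TAC libraries 1 to 3, against 0 to 0.12 FPKM in Ctrl-TAC. Ltf and Camp were also highest in VNS-TAC 1, at 1.14 and 1.37 FPKM, whereas Mmp8 was highest in VNS-TAC 3, at 1.93 FPKM. Mpo and Elane were at 0 to 0.07 FPKM in every library. The neutrophil sum was highest where Saa3, Serpina3n and Lcn2 were highest, and its part in their values was not tested. Lcn2 and Hp are themselves also made by neutrophils. The red cell markers summed to 1504, 310 and 25.1 FPKM in VNS-TAC libraries 1 to 3, against 183 to 578 FPKM in Ctrl-TAC, and were lowest where Saa3 was highest.

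Hepatocyte markers, 8 genes in the table, summed to 8.59 to 20.7 FPKM in VNS-TAC and 9.98 to 27.2 FPKM in Ctrl-TAC. Serpina1c was at 0 in every library, and Tat and Cps1 were at 0.09 FPKM or less. Ahsg was at 4.84, 7.57 and 16.82 FPKM in VNS-TAC libraries 1 to 3, against 6.79 to 9.27 FPKM in Ctrl-TAC. Ttr was at 0.64, 0.82 and 1.24 FPKM in VNS-TAC, against 0.05 to 0.29 FPKM in Ctrl-TAC. Ahsg and Ttr were thus highest in the library where Saa3 and Serpina3n were highest, and were the only 2 of the 8 to be so. Cyp2e1 and Apoa2 were instead highest in Ctrl-TAC, at 18.39 FPKM in Ctrl-TAC 3 and 2.2 FPKM in Ctrl-TAC 1. In VNS-TAC 3 they were at 1.34 and 1.03 FPKM. The part of this list in the values of Saa3 and Serpina3n was not tested. The adipocyte gene Adipoq was at 1.04, 3.28 and 0.16 FPKM in VNS-TAC, against 0.99 to 5.92 FPKM in Ctrl-TAC, the lowest value falling in VNS-TAC 3. The sum of the adipocyte list, 230 to 410 FPKM in VNS-TAC and 190 to 257 FPKM in Ctrl-TAC, came mostly from Pnpla2 and Cidea. Mesothelial markers, from the covering of the heart, summed to 17.0, 5.89 and 11.4 FPKM in VNS-TAC and 8.78 to 15.7 FPKM in Ctrl-TAC.

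The summed markers of the main resident cells were lowest in VNS-TAC 3, though not each gene. Fibroblast markers summed to 826 to 1245 FPKM in VNS-TAC and 1306 to 1327 FPKM in Ctrl-TAC, macrophage markers to 173 to 324 and 236 to 251 FPKM, and endothelial markers to 642 to 903 and 954 to 1014 FPKM, in the same order of groups. Cardiomyocyte markers, which checked the tissue label, summed to 71906, 61049 and 46132 FPKM in VNS-TAC libraries 1 to 3, against 54732 to 56585 FPKM in Ctrl-TAC. VNS-TAC 3 was the lowest library in 8 of 10 fibroblast, 7 of 10 macrophage, 6 of 10 endothelial and 6 of 10 cardiomyocyte markers. The share of all genes lowest in VNS-TAC 3 was not counted, so these counts have no background beside them. VNS-TAC 3 was the highest library for Dcn, Cd163, Pecam1, Vwf and Tnnt2, and for 31.8% of the genes that passed the filter. The part of these lists in the values of the receptor genes was not tested.

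**Figure D5:**
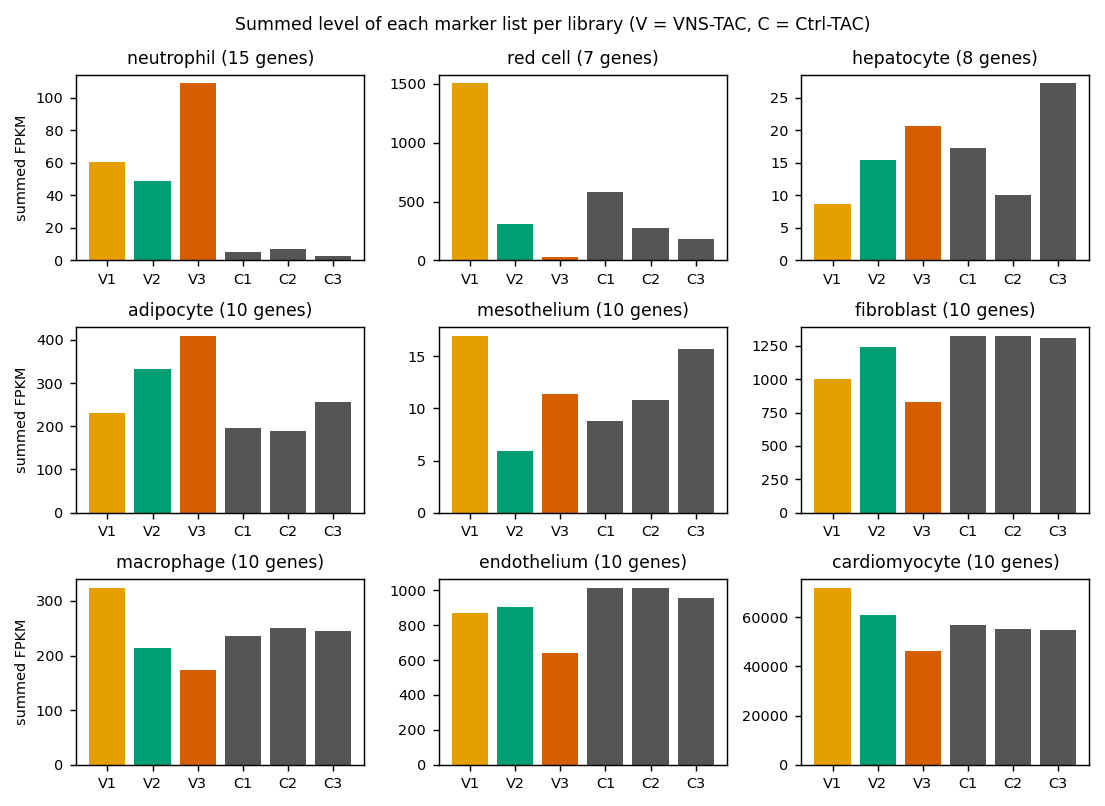
Summed FPKM of each marker list in the 3 VNS-TAC libraries (V1 to V3, coloured) and the 3 Ctrl-TAC libraries (C1 to C3, grey). Neutrophil markers reach 109 FPKM in VNS-TAC 3 against at most 7.15 FPKM in Ctrl-TAC, while red cell markers are at 25.1 FPKM in that library.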

How the data were processed

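RNA in 6 mouse heart libraries, 3 VNS-TAC and 3 Ctrl-TAC, was enriched with oligo-dT, per the labels' protocols. The authors deposited a table of FPKM values, per the file headers, with 1 column a library and 18019 genes by NCBI Gene ID. Of these IDs, 17890 were named from RefSeq (GRCm38.p6) and 15 from GENCODE M21, leaving 114 without a symbol. The submitters' processing notes name HISAT, featureCounts (1.5.0-p3), DESeq (1.8.3) and the GRCm38 build but not what each did, and strand and multi-mapping settings were not given in the sources used here. Groups came from the sample titles, because the treatment tag reads VNS for every sample. Ctrl-TAC columns were matched by library name, and VNS-TAC columns by group only.

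Values were analysed as log2(FPKM + 1), which understates the change of low genes, for the 11422 genes whose mean over the libraries reached 1 FPKM. Groups were compared with limma 3.58.1 in R 4.3.3 (intensity trend, 2-sided, Benjamini-Hochberg adjustment over all 11422 genes, threshold 0.05), after a test on simulated data. Depths are estimates from the steps of 1 fragment in genes of known length and entered no test. Tables and figures used Python 3.11.15, pandas 2.3.3, numpy 2.4.6 and matplotlib 3.10.9.

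The members and lists were chosen with earlier results of these data known, so members carry no p, and the p-values and counts of the lists are a description. Genes named are all members, the 3 of each list with the smallest unadjusted p, a fixed set of core ligands, receptors, kinases, inhibitors, plasma proteins and targets, the 3 genes nearest in pattern to Saa3, Serpina3n, Osmr and Socs3, and any said to be named for their values. The 14 alternatives were 2 pseudocounts, 2 filters, 3 scalings, limma without the trend, and each of the 6 libraries left out. A few genes that this rule names are counted in their lists but not reported here.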

Additional observations from a re-analysis of the deposited data

How the results depend on the processing

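With limma 0 genes passed the adjusted threshold. Raising the filter to 5 FPKM gave 1, size factors 2, quantile normalization 2, and leaving out a library 0 to 3 (3 without Ctrl-TAC 1 and 3 without VNS-TAC 3). In the acute-phase and IL-6 family lists the count was 0 under each of the 14 alternatives. At an unadjusted p under 0.05, leaving out a library gave 766 to 2515 genes in all, 6 to 9 in the acute-phase list and 7 to 17 in the IL-6 family list. With a pseudocount of 0.1 the log2 difference of Saa3 was 5.61. The sign turned for Cp with size factors (0.06) and after quantile normalization (0.09), for Il6st with size factors (0.01) and for Lifr with equal library sums (-0.06). With a library left out the log2 difference ran from 1.83 to 4.74 for Saa3, 1.31 to 2.71 for Serpina3n, -0.12 to 0.46 for Hp, -0.37 to 0.44 for Cp, -0.30 to 0.10 for Il6st, -0.16 to 0.29 for Il6ra, -0.45 to 0.52 for Osmr, -0.12 to 0.19 for Lifr, 0.07 to 1.04 for Socs3 and -0.05 to 0.26 for Stat3. The cause was not tested. Depth limits the low values, such as those of Saa3 in Ctrl-TAC and of the ligand genes. No paired analysis was possible because the VNS-TAC columns (1 to 3) match the library names in the labels (4 to 6) in no number and so cannot be tied to single samples; a replicate block was not run.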
